A study of Mus musculus with 20 samples.

Results

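The regions described here are sites of CTCF binding that were called in both peak lists from embryonic stem cells without thymine DNA glycosylase (TDG KO) and in exactly 1 of the 2 lists from wild-type (WT) cells. They were found by merging the peaks of the 4 CTCF lists wherever peaks overlapped by at least 1 bp, which gave 54729 regions. Of these, 5507 met the rule, or 10.1% of all regions (exact 95% interval 9.81 to 10.3) and 12.5% (12.2 to 12.8) of the 44132 regions found in both TDG KO lists. The shared WT list was that of replicate 1 in 3066 regions, called the WT replicate 1 subset below, and that of replicate 2 in 2441, the WT replicate 2 subset. For comparison, 32740 regions were in all 4 lists and 5885 were in both TDG KO lists and no WT list. The reverse pattern, both WT lists and exactly 1 TDG KO list, held in 275 regions, 0.831% of the 33108 regions in both WT lists. Both counts moved when the lists were made equal in length. With every list held to its strongest 37099 peaks, the length of the shortest, 2418 regions met the rule (7.07% of those in both TDG KO lists) and 1538 had the reverse pattern (4.69% of those in both WT lists). Members were chosen by the peak calls themselves, so these counts describe the calls and no test was run on them. Intervals cover counting error only.

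All cells were mouse embryonic stem cells of the 129 strain background, either WT or TDG KO, and both genotypes were grown with LIF on arrested mouse embryonic fibroblasts that were depleted by repeated plating before use. CTCF was measured by chromatin immunoprecipitation sequencing in 2 libraries per genotype, each with its own deposited peak list, and RNA by sequencing in 2 other libraries per genotype. Whether more than 1 line stands behind a genotype is not stated, so genotype and line cannot be told apart. Nor do the labels tie replicates to separate cultures, so the p-values below measure only the spread between libraries, which may be technical.

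CTCF is a zinc finger protein that binds a long, GC-rich motif and, together with cohesin, anchors chromatin loops and insulates neighbouring genes. Methylation of a CpG inside the motif is known to weaken its binding at many sites. TET enzymes oxidise methylated cytosine stepwise to formylcytosine and carboxylcytosine (5caC), and TDG excises these last forms, so cells without TDG keep more of them. The series title asks whether 5caC promotes CTCF binding at sequences that match the motif poorly, and a region called in every TDG KO list and only part of the WT lists lies between the sites bound in both genotypes and those called in TDG KO alone.

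The 4 lists differed in length and in how their peaks fell on the chromosomes. The WT lists held 38303 and 37099 peaks and the TDG KO lists 48514 and 48833, and the read depth behind them is unknown. Chromosome 11 held 6.32% and 7.21% of the peaks of WT replicates 1 and 2 but 9.36% and 7.74% of those of TDG KO replicates 1 and 2. In the RNA, 674 of the 1028 tested genes of chromosome 11 were higher in TDG KO (65.6%, against 20.6% of genes on all other chromosomes). WT replicate 1 stood apart on the X chromosome, with 3.92% of its peaks there against 2.38% to 2.60% in the other lists. Results that rest on chromosome 11 are therefore given with and without it.

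The reference sequence could be read where a region reached into the 250 bases before a gene start, from the RefSeq promoter table of GRCm38.p6 (mm10). The core of the CTCF motif was searched on both strands in 2 forms of 12 bases. The stricter form is CCA, AG and GGC with a free NN between each, and the looser form also leaves the A of CCA free, so it includes every match of the first. The first 8 stretches below are all those of the members in which the stricter form was found, and the last 3 hold a match of the looser form at genes described further on or on chromosome 11. These 3 were picked after their values were seen. Each runs 5′ to 3′ on the strand of the gene, and capitals mark the match. Matches outside such a stretch are counted further on and not shown.
Mpp6 (WT replicate 1 subset, chr6:50109991-50110156, + strand): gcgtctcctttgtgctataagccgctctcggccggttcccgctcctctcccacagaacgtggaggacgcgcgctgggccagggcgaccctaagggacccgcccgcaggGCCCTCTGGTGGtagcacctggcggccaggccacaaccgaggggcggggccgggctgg
Sgsm1 (WT replicate 1 subset, chr5:113310787-113311036, - strand): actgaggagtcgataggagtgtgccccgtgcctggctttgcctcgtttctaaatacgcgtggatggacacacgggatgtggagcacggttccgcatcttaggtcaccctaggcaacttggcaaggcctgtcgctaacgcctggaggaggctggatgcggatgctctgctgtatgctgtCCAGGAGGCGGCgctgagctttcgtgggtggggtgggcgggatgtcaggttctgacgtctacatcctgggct
Adam17 (WT replicate 1 subset, chr12:21373633-21373882, - strand): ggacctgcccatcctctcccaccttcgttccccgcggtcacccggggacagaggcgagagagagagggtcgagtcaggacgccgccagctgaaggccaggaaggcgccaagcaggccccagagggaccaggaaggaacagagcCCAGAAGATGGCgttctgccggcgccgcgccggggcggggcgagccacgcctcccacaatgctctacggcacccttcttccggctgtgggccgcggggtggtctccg
Serpinb6b (WT replicate 1 subset, chr13:32965011-32965260, + strand): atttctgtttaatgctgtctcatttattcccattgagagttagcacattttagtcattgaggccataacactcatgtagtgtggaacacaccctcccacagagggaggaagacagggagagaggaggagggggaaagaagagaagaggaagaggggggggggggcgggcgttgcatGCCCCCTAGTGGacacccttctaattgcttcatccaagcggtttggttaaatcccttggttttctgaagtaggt
Chrna1os (WT replicate 1 subset, chr2:73584614-73584859, + strand): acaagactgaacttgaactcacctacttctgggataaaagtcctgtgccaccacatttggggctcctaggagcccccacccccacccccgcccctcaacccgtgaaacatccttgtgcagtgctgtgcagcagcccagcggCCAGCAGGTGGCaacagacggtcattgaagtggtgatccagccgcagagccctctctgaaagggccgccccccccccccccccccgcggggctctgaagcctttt
Ppara (WT replicate 1 subset, chr15:85735526-85735713, + strand): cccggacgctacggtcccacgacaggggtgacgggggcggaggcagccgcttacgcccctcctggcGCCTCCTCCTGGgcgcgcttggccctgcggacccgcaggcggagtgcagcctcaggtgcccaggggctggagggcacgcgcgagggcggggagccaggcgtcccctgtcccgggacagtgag
Epha1 (WT replicate 2 subset, chr6:42373347-42373518, - strand): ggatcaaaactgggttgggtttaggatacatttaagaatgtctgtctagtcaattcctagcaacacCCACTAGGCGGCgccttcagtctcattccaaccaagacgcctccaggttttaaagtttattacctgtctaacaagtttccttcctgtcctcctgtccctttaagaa
Gm42376 (WT replicate 2 subset, chr7:30394974-30395105, - strand): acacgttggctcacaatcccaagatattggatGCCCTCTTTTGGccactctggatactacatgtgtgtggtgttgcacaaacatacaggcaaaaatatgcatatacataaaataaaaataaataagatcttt
Bmyc (WT replicate 1 subset, chr2:25706629-25706852, + strand): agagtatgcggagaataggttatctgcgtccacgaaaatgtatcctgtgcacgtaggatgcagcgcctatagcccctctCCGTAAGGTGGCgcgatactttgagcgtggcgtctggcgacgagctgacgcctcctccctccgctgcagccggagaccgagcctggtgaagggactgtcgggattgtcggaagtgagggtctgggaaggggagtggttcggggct
Sat1 (WT replicate 2 subset, chrX:155216450-155216699, - strand): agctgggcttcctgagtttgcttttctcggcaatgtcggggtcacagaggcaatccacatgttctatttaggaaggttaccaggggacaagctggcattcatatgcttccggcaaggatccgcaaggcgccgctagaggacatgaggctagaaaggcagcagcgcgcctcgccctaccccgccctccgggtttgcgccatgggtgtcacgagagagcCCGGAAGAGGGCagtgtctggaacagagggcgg
Wipf2 (WT replicate 2 subset, chr11:98863408-98863597, + strand): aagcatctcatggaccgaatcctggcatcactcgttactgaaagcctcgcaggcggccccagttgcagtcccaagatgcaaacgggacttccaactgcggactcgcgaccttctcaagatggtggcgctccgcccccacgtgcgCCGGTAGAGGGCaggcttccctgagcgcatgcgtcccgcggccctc

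In Epha1, Mpp6 and Serpinb6b the match lay 184, 142 and 74 bases before the gene start, counted at its first base. Epha1, which encodes an ephrin receptor, had the highest WT percentile of these 11 regions, 37.4 in WT replicate 2, and stood at 39.0 and 35.6 in TDG KO replicates 1 and 2. A percentile here is the rank of a peak's authors' score within its own list, from 0 for the weakest to 100 for the strongest. Ppara, a nuclear receptor of lipid metabolism, had the lowest, at percentile 0.668 in WT replicate 1 and 8.36 and 12.3 in the TDG KO lists. Wipf2 on chromosome 11 was at percentile 8.37 in WT replicate 2 and at 58.1 and 33.0 in TDG KO. The stretches shown thus belong to members of quite different strength.

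Promoter windows of the WT replicate 1 subset were richer in CpG than those of the WT replicate 2 subset. A window is the 300 bases from 250 before to 50 after a gene start, and it was assigned to a region whose midpoint it held. The WT replicate 1 subset had 85 such windows with a median of 22 CpG dinucleotides (quartiles 14 and 29) and a GC content of 64%. The WT replicate 2 subset had only 24, with a median of 11.5 CpG (quartiles 3.75 and 26.25) and a GC content of 56.7%. Windows of regions in all 4 lists had a median of 19 CpG (985 windows), those with no WT peak 15 (89 windows) and windows without any region 7 (31505 windows). Ranges of the subsets overlapped widely, and the windows of 1 subset come from a single WT list.

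**Figure D1:**
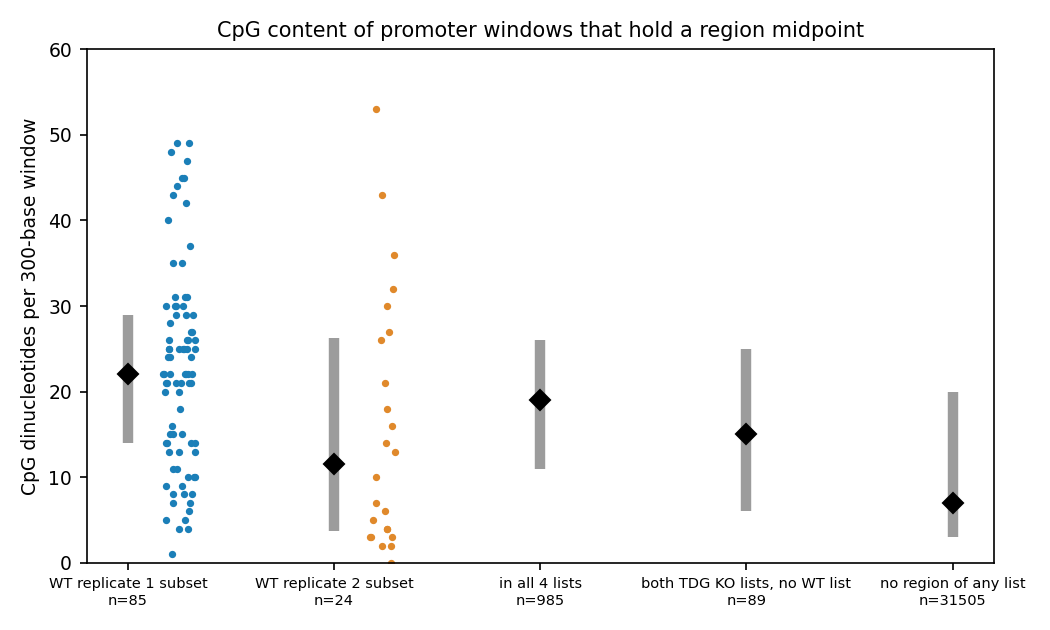
CpG dinucleotides per 300-base promoter window (y axis) for windows that hold a region midpoint, by class of region (x axis). Diamonds are medians, grey bars span the quartiles and small points are single windows of the 2 subsets. The median is 22 in the WT replicate 1 subset and 11.5 in the WT replicate 2 subset, and windows with no region have 7.

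Matches to the motif were less frequent in member windows than in windows of regions in all 4 lists. The stricter form was present in 8.24% of windows of the WT replicate 1 subset (7 windows) and 8.33% of the WT replicate 2 subset (2 windows). It was present in 20.4% of windows of regions in all 4 lists, in 12.4% with no WT peak and in 2.43% of all 32851 promoter windows. For the looser form the shares were 24.7% and 33.3% in the subsets, 47.0% in regions of all 4 lists, 33.7% with no WT peak and 8.61% of all windows. A G as the third letter of the looser form makes a CpG with the C before it, as in Bmyc, Sat1 and Wipf2. This was so in 5 of 25 matches of the WT replicate 1 subset and 6 of 11 of the WT replicate 2 subset, against 31.6% of matches in regions of all 4 lists and 24.7% over all windows. Several matches can lie in 1 window, and 11 matches are too few to order the subsets. A window without a match says only that these letters are not in it.

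Members were weak to middling peaks. In the WT replicate 1 subset the median peak was at percentile 14.4 of WT replicate 1 and at percentiles 25.9 and 28.2 of TDG KO replicates 1 and 2. In the WT replicate 2 subset it was at percentile 14.1 of WT replicate 2 and at 28.6 and 25.6 of the TDG KO lists. Regions in all 4 lists stood far higher, with medians of 57.1 and 55.5 in the WT lists and of 66.0 and 66.3 in the TDG KO lists, and regions with no WT peak lower, at 18.1 and 17.8. The lists differ in length, so a percentile of a WT list and one of a TDG KO list are not on the same scale, and no change is read from them here or at single regions below. Members were also intermediate in width, with median region widths of 267 and 266 bp in the 2 subsets against 379 bp for regions in all 4 lists and 235 bp for those with no WT peak. Nearly all of them (5479, or 99.5%) held exactly 1 peak in each list that called them.

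The share of regions called in only 1 WT list varied with the strength in TDG KO. Regions in both TDG KO lists were ordered by the mean of their 2 TDG KO percentiles. Members made up 22.5% of regions at 0 to 10 and reached 34.9% (1627 regions) at 20 to 30. Beyond that they made up 13.4% at 40 to 50, 1.26% at 60 to 70 and 0.136% (7 regions) at 80 to 90, and above 90 there were none. Over the same span regions with no WT peak went from 72.2% to 0 and regions with both WT peaks from 5.27% to 100%. At 20 to 30, where members were most frequent, regions with no WT peak made up 32.8% and regions with both WT peaks 32.3%. A region with 1 of 2 WT calls is by the rule most likely where WT calls are neither rare nor general. This place of the members thus follows in part from how they were chosen.

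**Figure D2:**
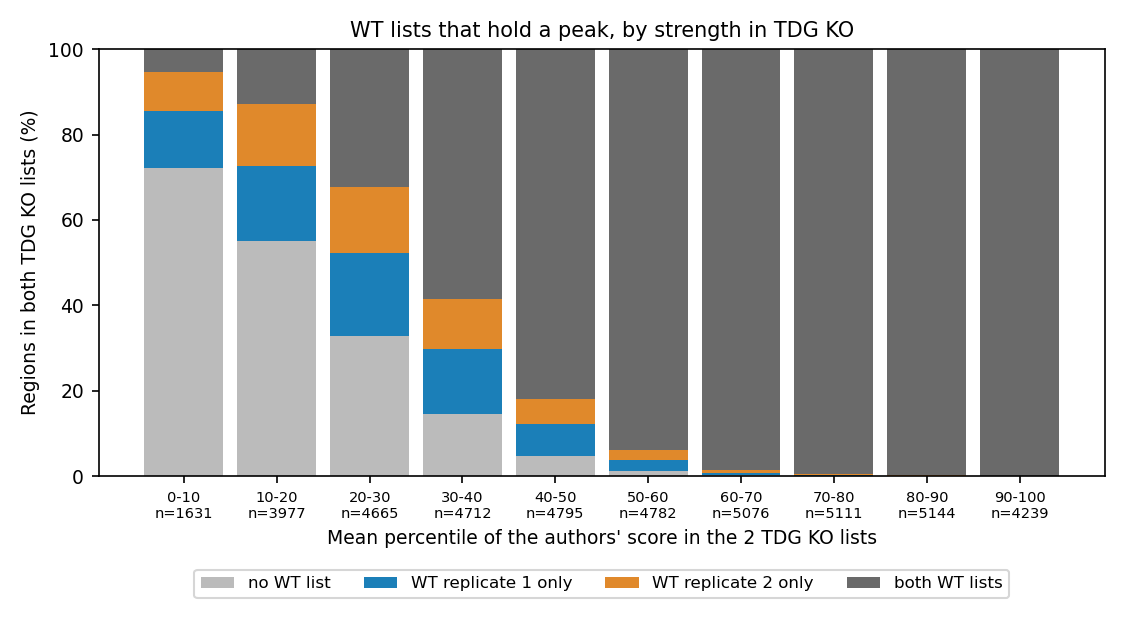
Regions in both TDG KO lists, in bins of their mean percentile in those lists (x axis, with the number of regions), divided by the WT lists that also held a peak (y axis, percent). Regions with a single WT peak are most frequent at 20 to 30, where they make up 34.9%, and are absent above 90.

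At the edge of the rule, no member owed its WT peak to a sliver of overlap. In each region the WT peak was set against the TDG KO peak that it overlapped most. The smallest such overlap was 74 bp in the WT replicate 1 subset and 76 bp in the WT replicate 2 subset, and the medians were 187 and 184 bp. Overlap with the peak of the other TDG KO list can be smaller and was not measured. On the other side, the closest peak of the WT list that lacked the region was 92 bp away in the WT replicate 1 subset and 87 bp away in the WT replicate 2 subset. It was within 500 bp for 93 of 3066 and 67 of 2441 regions, and the median distance was 12786.5 and 17412 bp. Most members therefore had no nearby peak in the missing list that a slightly wider merge would have joined.

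The strongest members in TDG KO lay mostly on chromosome 11 in 1 subset and not in the other. In the WT replicate 2 subset, 4 of the 5 with the highest mean TDG KO percentile lay on chromosome 11. The first, at chr11:78515360-78516261 inside Poldip2, was at percentile 36.4 in WT replicate 2 and at 97.9 and 77.7 in TDG KO replicates 1 and 2. Poldip2, which encodes a partner of a DNA polymerase, held 38.6 and 40.1 FPKM in WT and 83.5 and 86.6 FPKM in TDG KO (log2 change 1.09, adjusted p = 3.60e-05 in limma). FPKM counts fragments per kilobase of transcript, scaled to the mapped fragments of the library. The next, at chr11:63217010-63217603 between genes, was at percentile 11.6 in WT replicate 2 and at 94.1 and 76.5 in TDG KO. The region at chr11:82613495-82613793, also between genes, was at percentile 70.5 in WT replicate 2 and 93.9 and 72.1 in TDG KO. All of the chromosome 11 regions in this group were higher in TDG KO replicate 1 than in replicate 2, and so was the remaining region. The remaining region lay inside the calcium channel gene Cacna1c at chr6:118606030-118606405, at percentiles 34.9, 84.6 and 69.7 of WT replicate 2 and TDG KO replicates 1 and 2.

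In the WT replicate 1 subset the strongest members lay on 5 different chromosomes. The first, between genes at chr7:23163534-23163915, was at percentile 18.9 in WT replicate 1 and at 92.7 and 76.8 in TDG KO replicates 1 and 2, with the nearest region of all 4 lists 804138 bp away. A region at chr2:10701450-10701832, 106197 bp from the end of Sfmbt2, was at percentile 36.4 in WT replicate 1 and 80.0 and 83.0 in TDG KO. Sfmbt2 encodes a polycomb-related repressor that is imprinted in mouse extraembryonic tissue. The region at chr4:129111326-129111693 covered the end of Hpca, a neuronal calcium sensor gene, and part of Tmem54, and stood at percentile 28.7 in WT replicate 1 and 85.3 and 77.1 in TDG KO. The other two, on chromosomes 11 and 18, lay between genes. Among the weakest members, a region inside Cox7a2, which encodes a subunit of cytochrome c oxidase (chr9:79767484-79767710), was at percentile 0.0548 in WT replicate 1 and 0.225 and 1.68 in TDG KO. A region at the start of Ndrg3 (chr2:156991913-156992294) was at percentile 6.76 in WT replicate 1 and 1.79 and 0.542 in TDG KO, and a region inside the malic enzyme gene Me1 (chr9:86593025-86593286) at 2.93 in WT replicate 2 and 0.102 and 2.13 in TDG KO. These regions were near the bottom of every list that called them.

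A small group was strong in 1 WT list and absent from the other. The WT peak was above the median of its own list in 27 regions of the WT replicate 1 subset and 77 of the WT replicate 2 subset. The most extreme lay 841 bp from Rap1a, a small GTPase gene, at chr3:105726022-105726419. It was at percentile 91.7 in WT replicate 2 and percentiles 58.8 and 25.6 in TDG KO replicates 1 and 2, while the nearest peak of WT replicate 1 was 38166 bp away. The next, inside Nme8 at chr13:19684014-19684369, was at percentile 84.6 in WT replicate 2 and 54.2 and 20.5 in TDG KO, with the nearest WT replicate 1 peak 14467 bp away. These 2 were named after their values were seen.

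The 2 subsets were spread differently over the chromosomes. On 17 of 19 autosomes the WT replicate 1 subset was the larger, with 1.03 to 2.11 of its regions per region of the WT replicate 2 subset and the widest gap on chromosome 7 (219 and 104 regions). Chromosome 11 went the other way, with 101 regions in the WT replicate 1 subset and 328 in the WT replicate 2 subset, and every 1 of its 7 windows of 20 Mb had more of the latter. Chromosome 6 held 149 and 175, and its excess sat in the windows from 100 to 120 Mb (9 and 31 regions) and from 120 to 140 Mb (11 and 45 regions). The X chromosome held 55 and 99. The members' share of regions in both TDG KO lists was even all the same, at 11.1% to 14.4% on the autosomes and 11.9% on chromosome 11.

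Chromosome 11 members were also stronger in TDG KO than members elsewhere. In TDG KO replicates 1 and 2 they had medians of 45.4 and 37.0, and 75.3% of them had the higher percentile in replicate 1. On the other chromosomes the medians were 26.0 and 26.4. At a mean TDG KO percentile of 20 to 40, a WT peak was found in WT replicate 1 for 15.6% and in WT replicate 2 for 29.6% of the 629 regions of chromosome 11, against 66.2% and 61.1% of regions elsewhere. Regions with no WT peak made up 24.7% of the regions in both TDG KO lists on chromosome 11 and 12.3% elsewhere. On this chromosome a peak of middling strength in TDG KO was thus seldom called in WT, and more seldom in replicate 1 than in replicate 2. The share of RNA from chromosome 11 moved as well, with 11.3% and 11.2% of all FPKM in WT and 14.8% and 14.9% in TDG KO. What these differences rest on was not tested. Without chromosome 11 there were 5078 members, 2965 in the WT replicate 1 subset and 2113 in the WT replicate 2 subset. This split by chromosome was chosen after seeing the data.

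**Figure D3:**
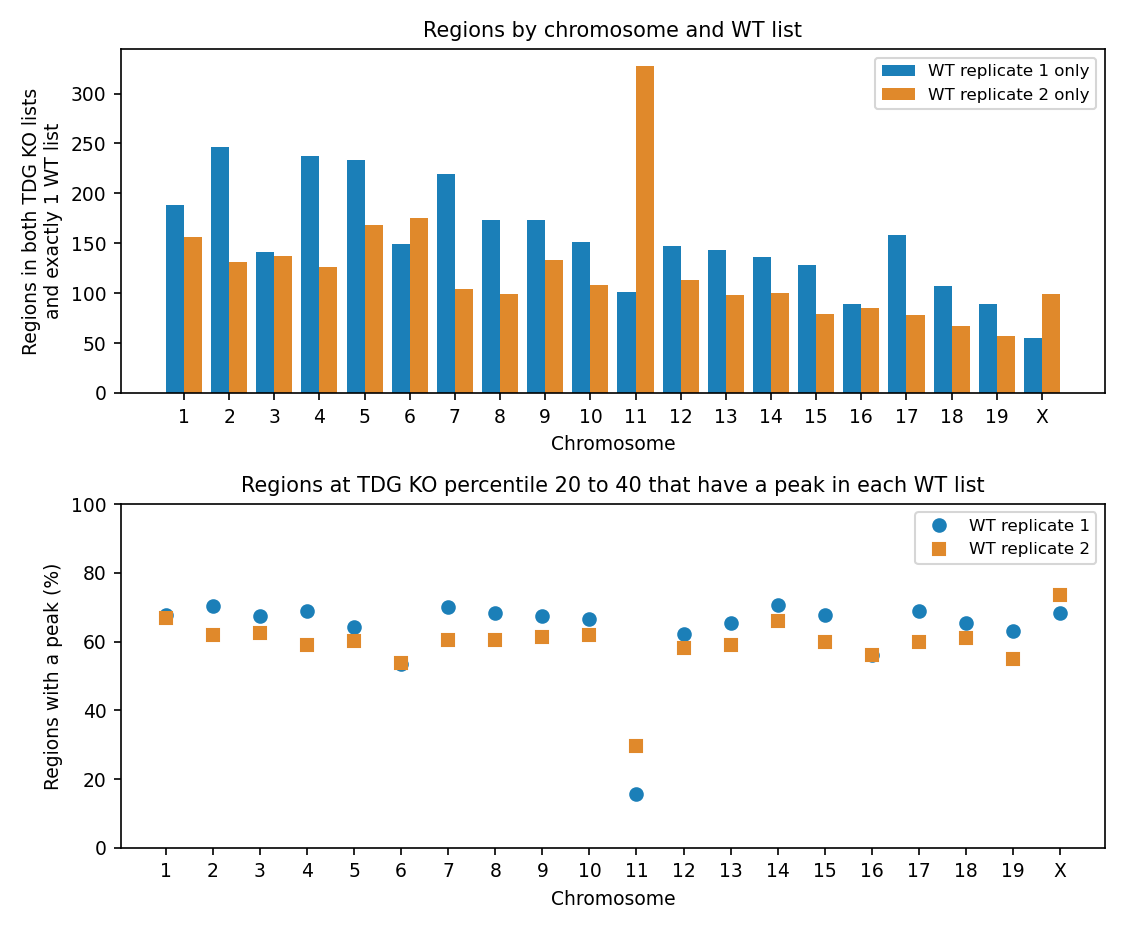
Upper panel, members per chromosome (y axis, number of regions) in the 2 subsets. Lower panel, share of regions at a mean TDG KO percentile of 20 to 40 that had a peak in each WT list (y axis, percent). Chromosome 11 has 101 and 328 members and the lowest WT shares, 15.6% and 29.6%.

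The position of members relative to genes differed between the subsets. Within 1 kb of either end of a RefSeq gene lay 14.7% of all members (exact 95% interval 13.8 to 15.7, 809 regions). The share was 17.7% (16.4 to 19.14) in the WT replicate 1 subset and 10.9% (9.65 to 12.2) in the WT replicate 2 subset, next to 16.9% of regions in all 4 lists and 12.7% of regions with no WT peak. Between genes lay 33.2% and 41.2% of the 2 subsets, and inside genes, further than 1 kb from an end, 49.0% and 48.0%. The annotation used gives gene ends without exons, so exons and introns were not told apart. Starts of genes showed the same order, with 9.26% of the WT replicate 1 subset (274 of 2959 regions) and 4.59% of the WT replicate 2 subset (109 of 2374) within 1 kb of a start in the promoter table. That table holds no start on chromosome 18.

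In the whole WT lists 16.3% and 15.6% of peaks were within 1 kb of a gene end. Most peaks of both lists lie in regions of all 4 lists, so these shares had to be close. They are no yardstick for the gap between the subsets, which hold only regions where the WT lists disagree. The direction of that gap held on 19 of 20 chromosomes (Y left out), chromosome 19 being the exception. It also held in each of the 6 bins of TDG KO percentile from 0 to 60. Leaving out chromosome 11 gave 17.5% and 10.3%. The subsets rest on 1 WT library each, so the spread between WT replicates is this difference itself and no test of it was possible. Members of the WT replicate 1 subset were also nearer to regions of all 4 lists, at a median of 13715 bp against 19403 bp.

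**Figure D4:**
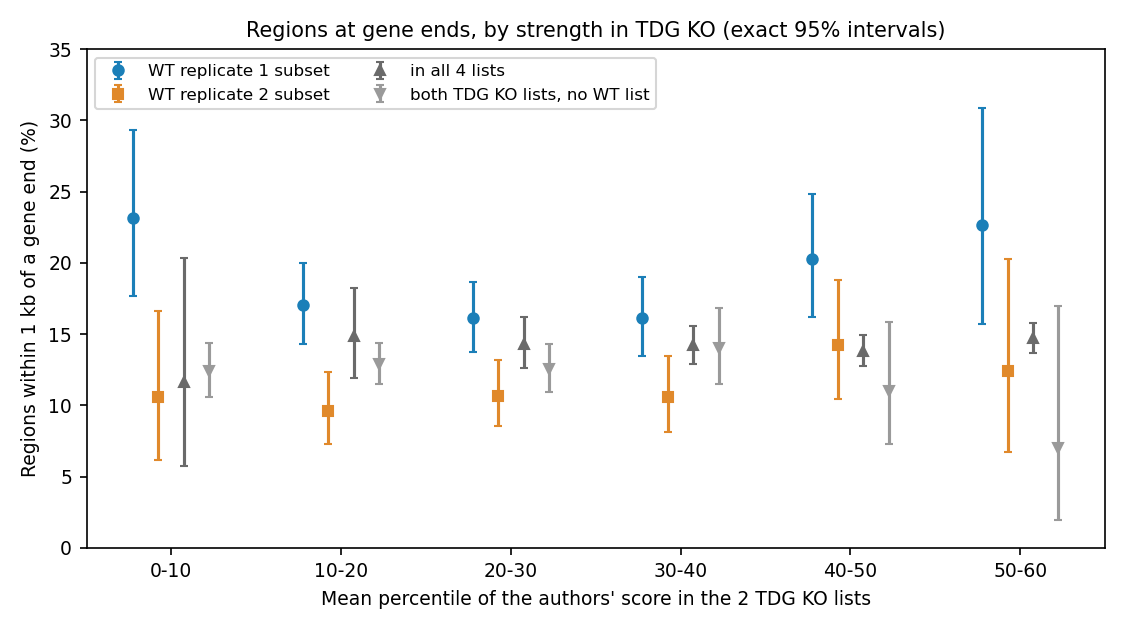
Share of regions within 1 kb of a gene end (y axis, percent) by mean percentile in the 2 TDG KO lists (x axis), for the 2 subsets and for the 2 comparison classes. Bars are exact 95% binomial intervals. The WT replicate 1 subset lies above the WT replicate 2 subset in all 6 bins, and the intervals of the subsets overlap from 40 to 60.

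Near gene groups of interest, members were a small part of the CTCF regions present. Of the regions in both TDG KO lists within 10 kb of the genes of a group, members made up 10 of 65 at DNA methylation and demethylation genes, 8 of 96 at imprinted genes, 6 of 46 at genes of CTCF and cohesin, 4 of 60 at pluripotency genes and 4 of 27 at germline genes. At the clustered protocadherins, whose alternative promoters are a textbook case of CTCF binding, they were 4 of 72, and at the Hox clusters 2 of 24. They were 4 of 50 at primed epiblast and germ layer genes, 2 of 10 at the X inactivation centre, 2 of 19 at stem cell markers and 1 of 16 at fibroblast markers. The shares thus ran from 5.56% at the protocadherins to 20% at the X inactivation centre, around 12.5% for all regions in both TDG KO lists, and most rest on fewer than 10 members.

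Among the members near DNA methylation and demethylation genes, 1 lay within 10 kb of Tet1, which encodes an enzyme that oxidises methylated cytosine. This region, at chr10:62794267-62794585, lay between genes, with the start of Ccar1 nearest at 1899 bp. It was at percentile 4.97 in WT replicate 2 and at 45.3 and 40.8 in TDG KO replicates 1 and 2. Tet1 RNA was 45.7 and 44.5 FPKM in WT and 37.2 and 24.7 FPKM in TDG KO, a log2 change of -0.56 (SE 0.17, adjusted p = 0.0274 in limma). The 2 TDG KO libraries lay apart from each other but both below WT. In the whole group of DNA methylation and demethylation genes, 7 of 29 tested genes were higher and 14 lower in TDG KO, against 24.4% and 29.5% of all genes tested. The group's share of higher calls was thus close to the background, and its share of lower calls was above it. Its median log2 change was -0.16 against -0.04 for all tested genes. A region inside Mex3d, which encodes an RNA-binding protein, and within 10 kb of Mbd3, of the methyl-CpG binding family (chr10:80383461-80383839), was at percentile 14.5 in WT replicate 1 and 53.8 and 41.2 in TDG KO. Mex3d RNA was 4.85 and 4.48 FPKM in WT and 5.52 and 5.88 FPKM in TDG KO. Mbd3 RNA held 109 and 113 FPKM in WT and 104 and 118 FPKM in TDG KO, which overlap.

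Among cohesin genes, a region inside Stag1 (chr9:100898091-100898382), a cohesin subunit gene, was at percentile 15.9 in WT replicate 1 and at 23.0 and 39.2 in TDG KO. Stag1 RNA was 31.5 and 32.3 FPKM in WT and 21.7 and 19.4 FPKM in TDG KO (log2 change -0.61, adjusted p = 0.000732 in limma). The region inside Maz, which encodes a zinc finger protein that binds beside CTCF, was at percentile 24.98 in WT replicate 1 and at 7.27 and 24.9 in TDG KO (chr7:127025233-127025513). Maz RNA went from 115 and 106 FPKM in WT to 71.3 and 75.7 FPKM in TDG KO. Both genes were lower in each TDG KO library. In the group of CTCF and cohesin genes 5 of 24 tested were higher and 13 lower, against 24.4% and 29.5% of all genes tested (median log2 change -0.28). In WT, 1 of the 24 had a mean under the 1 FPKM needed for a test. It was tested only because TDG KO was higher.

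At imprinted genes, the region with the highest mean TDG KO percentile lay inside Slc38a4, an amino acid transporter gene (chr15:97021625-97021883), at percentile 9.94 in WT replicate 1 and 57.6 and 40.9 in TDG KO. Slc38a4 RNA was 48.4 and 50.3 FPKM in WT and 76.5 and 69.5 FPKM in TDG KO (log2 change 0.55, adjusted p = 0.000863 in limma). On chromosome 11, a region inside Commd1, the host gene of the imprinted Zrsr1 (chr11:22969575-22969843), was at percentile 17.5 in WT replicate 2 and 49.6 and 43.6 in TDG KO. Zrsr1 RNA held 4.90 and 5.06 FPKM in WT and 8.999 and 8.34 FPKM in TDG KO. Of the imprinted genes 17 of 34 tested were higher and 7 lower, and of the germline genes 19 of 26 were higher and 5 lower, with median log2 changes of 0.26 and 1.01. The shares over all genes tested were 24.4% and 29.5%. In WT, 2 of these imprinted and 5 of these germline genes had a mean under the 1 FPKM needed for a test, so they were tested only because TDG KO was higher, and the counts and medians are given as a description. In the germline group, a region inside Asz1, a gene of the piRNA pathway (chr6:18078699-18078930), was at percentile 49.3 in WT replicate 2 and 47.4 and 20.5 in TDG KO. Asz1 RNA was 0.190 and 0.319 FPKM in WT and 2.95 and 3.08 FPKM in TDG KO. Asz1 is 1 of the germline genes that were tested only through their level in TDG KO, so no test is given for it.

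The labels were checked on the RNA. Tdg held 28.1 and 30.4 FPKM in WT and 5.50 and 4.74 FPKM in TDG KO, a drop on the log2 scale of -2.31 (SE 0.087, adjusted p = 9.21e-06 in limma). The 8 embryonic stem cell markers summed to 7877 and 8667 FPKM in WT and 6067 and 6257 FPKM in TDG KO. All 8 had a mean of at least 1 FPKM. Of these, 2 were called higher and 3 lower in TDG KO, against 24.4% and 29.5% of all genes tested. The 10 fibroblast markers summed to 508 and 365 FPKM in WT and 247 and 261 FPKM in TDG KO. All 10 had a mean of at least 1 FPKM over the 4 libraries. Of the fibroblast markers none was called higher and 8 lower in TDG KO, against 24.4% and 29.5% of all genes tested. Of these 8, Lum (2.39 and 1.37 FPKM in WT, 0.627 and 0.774 FPKM in TDG KO) reached that mean only through WT. Its direction was thus fixed by the filter. Their part in the results at members was not tested. In bulk RNA, fewer cells of a type and less RNA per cell cannot be told apart.

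Genes at members differed in expression about as often as genes at large. A total of 931 genes had an end within 1 kb of a member, 707 had a row in the expression table and 374 were expressed at a mean of at least 1 FPKM and tested, 8 of them with a mean under 1 FPKM in WT and 6 with one in TDG KO. Of these 110 were higher and 91 lower in TDG KO (29.4% and 24.3%), against 24.4% and 29.5% of all 12035 genes tested, and 201 were called in all (53.7%, against 54%). Their median log2 change was 0.03, against -0.04 for all tested genes. Of the 374, 15 were called with a log2 change of at least 1 in size (4.01%, against 4.92%). On chromosome 11, 32 of 46 tested genes were higher and 5 lower, against 65.6% and 5.25% of all its tested genes. Without it 78 of 328 were higher and 86 lower (23.8% and 26.2%, against 20.6% and 31.8% of genes outside chromosome 11), so lower calls outnumbered higher ones there, as they did among all genes outside that chromosome. In either direction 50.0% of these 328 were called, against 52.4%.

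Genes at the 2 subsets were called about as often as genes at large, at 52.7% and 56.5% against 54%. The direction of the calls differed. Of the 260 tested genes at the WT replicate 1 subset, 66 were higher and 71 lower (25.4% and 27.3%). Of the 115 at the WT replicate 2 subset, 45 were higher and 20 lower (39.1% and 17.4%), and 33 of these genes were on chromosome 11. The shares of all genes tested were 24.4% and 29.5%. Without chromosome 11, 57 of 247 were higher and 69 lower in the first subset (23.1% and 27.9%). In the second, 22 of 82 were higher and 17 lower (26.8% and 20.7%), against 20.6% and 31.8% of genes outside chromosome 11. In either direction these were 51.0% and 47.6%, against 52.4%. The difference between the subsets was not tested.

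The genes named below were the 6 highest and 6 lowest called genes of each subset with a mean of at least 5 FPKM and libraries that did not overlap between genotypes, which held for 78.8% of all genes tested. The mean was taken over all 4 libraries, and 5 of these 24 genes (Dazl, Bmyc, Specc1, B4galnt3 and Slc1a4) reached it only through TDG KO, their WT mean being under 5 FPKM. The direction of these 5 was thus fixed by that filter. In the WT replicate 1 subset the largest rise was in Peg10 (ENSMUSG00000092035, chr6:4747306-4760517), an imprinted, paternally expressed gene derived from a retrotransposon. It held 21.0 and 20.9 FPKM in WT and 94.5 and 82.5 FPKM in TDG KO, a log2 change of 2.02 (SE 0.077, adjusted p = 9.71e-06 in limma). The region next to it, 51 bp away at chr6:4747054-4747255 and over the facing end of Sgce, was at percentile 7.64 in WT replicate 1 and 36.7 and 21.2 in TDG KO. Sgce, imprinted with Peg10, held 4.08 and 3.06 FPKM in WT and 6.55 and 5.53 FPKM in TDG KO (log2 change 0.63, adjusted p = 0.00690 in limma). Both neighbours were thus higher in both TDG KO libraries.

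Dazl (ENSMUSG00000010592, chr17:50279393-50293620), which encodes an RNA-binding protein of germ cells, held 4.14 and 5.44 FPKM in WT and 22.7 and 21.0 FPKM in TDG KO (log2 change 1.99, SE 0.11, adjusted p = 4.37e-05 in limma). The region 425 bp from its start (chr17:50292796-50293195) was at percentile 46.6 in WT replicate 1 and 35.7 and 50.7 in TDG KO. Slc2a1, the glucose transporter GLUT1 gene, rose from 92.6 and 105.6 FPKM to 183 and 181 FPKM, and the region 65 bp from its start was at percentile 31.6 in WT replicate 1 and 39.4 and 41.9 in TDG KO. The other risers were Engase on chromosome 11, which encodes a glycosidase (6.95 and 6.17 to 15.3 and 15.8 FPKM), the Myc relative Bmyc (4.63 and 5.15 to 10.1 and 12.9 FPKM) and the MAP kinase phosphatase gene Dusp1 (24.2 and 23.2 to 43.8 and 40.5 FPKM). Their log2 changes were 1.13, 1.07 and 0.80.

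The genes of this subset that fell the most were Slc6a8, Fzd5, Ttll4, Glb1, Klf4 and Prmt1. Slc6a8 (ENSMUSG00000019558), the creatine transporter gene on the X chromosome, held 69.0 and 67.7 FPKM in WT and 32.0 and 30.9 FPKM in TDG KO (log2 change -1.10, SE 0.059, adjusted p = 3.35e-05 in limma). The region 671 bp from it (chrX:73672136-73672462) was at percentile 61.8 in WT replicate 1 and at 43.9 and 42.0 in TDG KO. Fzd5, a Wnt receptor gene, fell from 25.8 and 27.2 to 12.6 and 11.7 FPKM, with a region 57 bp from its start at percentile 22.3 in WT replicate 1 and 11.4 and 19.3 in TDG KO. Klf4, a pluripotency factor gene, fell from 178 and 185 to 110 and 105 FPKM, with a region 927 bp from its start, inside the gene, at percentile 18.5 in WT replicate 1 and 7.93 and 13.5 in TDG KO. Ttll4, a tubulin-modifying enzyme gene, Glb1, which encodes lysosomal beta-galactosidase, and the arginine methyltransferase gene Prmt1 fell by 0.91, 0.81 and 0.75 on the log2 scale.

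In the WT replicate 2 subset the largest rise was in Mt2 (ENSMUSG00000031762, chr8:94172618-94173567), which encodes a metallothionein, a protein that binds zinc and copper. It held 318 and 335 FPKM in WT and 1219 and 1308 FPKM in TDG KO, a log2 change of 1.95 (SE 0.075, adjusted p = 1.02e-05 in limma). The region 555 bp beyond its end (chr8:94174122-94174375) was weak in every list that called it, at percentile 2.50 in WT replicate 2 and 12.1 and 13.5 in TDG KO. Itga3 on chromosome 11, an integrin subunit gene, rose from 7.04 and 7.37 to 22.5 and 21.7 FPKM (log2 change 1.49, SE 0.068, adjusted p = 1.82e-05 in limma), with a region 344 bp from its start at percentile 10.9 in WT replicate 2 and 41.4 and 30.2 in TDG KO. Pdxdc1 on chromosome 16 rose from 18.9 and 19.24 to 43.9 and 49.0 FPKM, and the region 299 bp from its start (chr16:13903475-13903854) was at percentile 14.5 in WT replicate 2 and 50.7 and 50.6 in TDG KO. At these 3 genes the RNA was higher in each TDG KO library than in WT, which the rule that named them required.

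The other risers lay on chromosomes 11 and 6. Specc1 (2.15 and 2.30 to 9.29 and 8.34 FPKM) and the neutral amino acid transporter gene Slc1a4 (3.72 and 4.03 to 11.8 and 11.2 FPKM) are on chromosome 11, where 65.6% of all tested genes were higher. B4galnt3, a glycosyltransferase gene (2.95 and 3.04 to 9.88 and 9.11 FPKM), has its region at chr6:120199682-120200015, in the stretch of chromosome 6 with 11 and 45 members. Their log2 changes were 1.60, 1.36 and 1.39.

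Falls at the WT replicate 2 subset were smaller. Oat, the ornithine aminotransferase gene (ENSMUSG00000030934), held 50.0 and 49.4 FPKM in WT and 31.0 and 33.0 FPKM in TDG KO (log2 change -0.62, SE 0.062, adjusted p = 0.000369 in limma), with a region 393 bp from its start at percentile 37.0 in WT replicate 2 and 54.8 and 34.1 in TDG KO. Sat1 on the X chromosome, which encodes the polyamine acetyltransferase whose promoter sequence is given above, fell from 55.1 and 54.6 to 36.4 and 37.2 FPKM. Its region covered the gene start and was at percentile 11.1 in WT replicate 2 and 20.2 and 28.4 in TDG KO. B4galt6, a glycosphingolipid synthesis gene, the membrane protein gene Myof, the coactivator gene Trip4 and Hap1 fell by 0.58, 0.50, 0.47 and 0.45 on the log2 scale. Hap1 was lower although it is on chromosome 11, from 42.5 and 40.7 to 29.8 and 30.5 FPKM, and its region was at percentile 2.95 in WT replicate 2 and 42.6 and 26.7 in TDG KO.

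**Figure D5:**
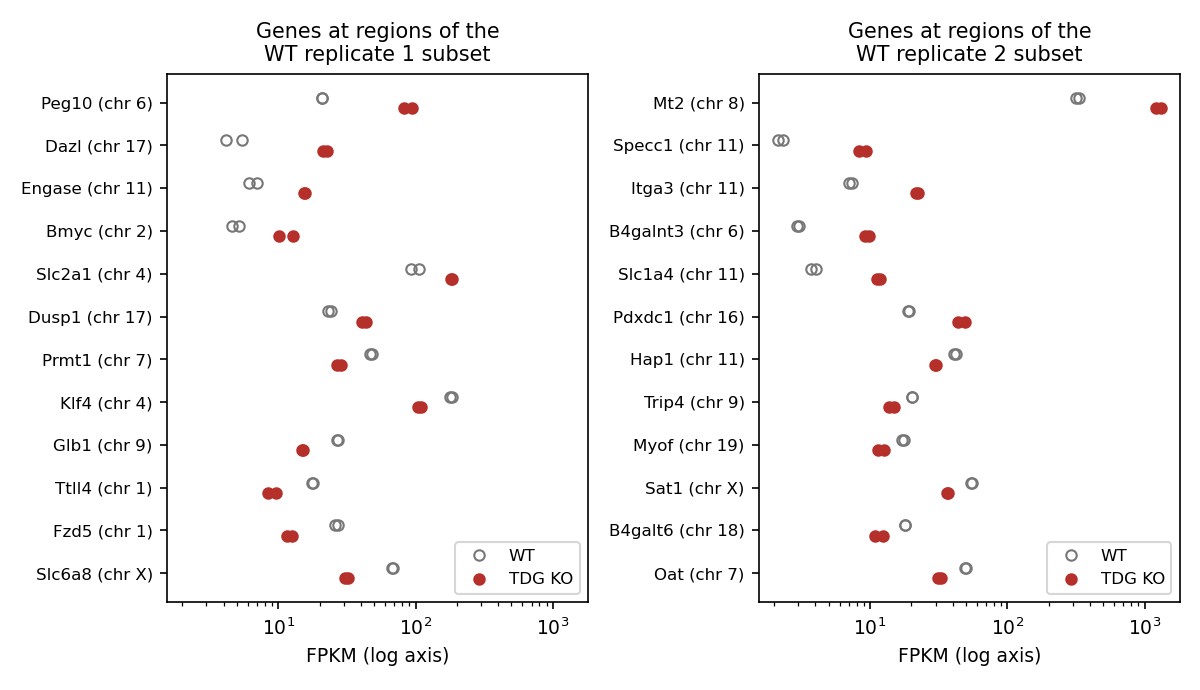
FPKM (log axis) in each RNA library of the 12 named genes of each subset, with open circles for WT and filled circles for TDG KO. Libraries of the genotypes do not overlap for any of these genes, because the rule that named them required it, and the highest levels are those of Mt2, at 1219 and 1308 FPKM in TDG KO.

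Of the genes whose promoter sequence is given above, Epha1 rose from 1.85 and 1.67 to 3.66 and 3.93 FPKM (log2 change 0.80, adjusted p = 0.000709 in limma). Wipf2 rose by 0.58, Sgsm1 by 0.29 and Adam17, a membrane protease gene, by 0.27 on the log2 scale (adjusted p = 0.00313, 0.0349 and 0.0243 in limma). Mpp6 held 46.5 and 48.1 FPKM in WT and 46.5 and 52.1 FPKM in TDG KO, with an adjusted p of 0.539 in limma. Ppara, Serpinb6b and Chrna1os were below the mean of 1 FPKM needed for a test.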

How the data were processed

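CTCF binding was deposited as 1 peak list per library. Each peak carries a deposited score, used only to rank peaks inside its list, since its meaning, the control and the calling threshold are not stated in the labels or headers. Per the submitters' processing notes, deepTools, MACS2 2.2.1, Bowtie2 2.2.9, Cuffdiff, Cufflinks 2.2.1 and TopHat2 2.1.1 were used with mm10, their roles not being given. RNA was deposited as FPKM per gene and library, per the file headers. The authors' table of the comparison, with deposited log2 folds, p-values and a test score, was not used. FPKM holds no counts, so depth is unknown, and with strand use unstated, values of overlapping and antisense genes are uncertain.

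Peaks of the 4 lists were merged at an overlap of 1 bp. Gene ends came from RefSeq on GRCm38.p6 (49943 genes), which matched 11847 of the 12035 tested genes (98.4%). Coordinates are 1-based. RNA values were compared on the log2(FPKM + 1) scale, which makes changes of low genes look smaller, using limma 3.58.1 (trend option, R 4.3.3) over genes with a mean of at least 1 FPKM. Benjamini-Hochberg adjustment was over all of them, at 0.05. Tests were 2-sided. On simulated data the procedure called 23% of 100 planted log2 changes of 0.5 and 66% of 100 planted changes of 1. It called 0.0169% of the unchanged genes. Far fewer genes were changed there than were called in the data, so these rates need not hold for the data. No count was adjusted over a list alone.

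The members and gene lists were chosen with earlier results of these data known. Named genes were Tdg and, for each subset, the 6 largest log2 rises and 6 largest falls among called genes that had an end within 1 kb of a member, at least 5 FPKM on average and no overlap between genotypes. Named regions were the 5 highest and 2 lowest by mean TDG KO percentile and up to 3 per list within 10 kb of a listed gene, of which the text gives a part. Alternatives varied the merge, the list length, the distance, the pseudocount, the filter, the scaling and the libraries. RNA polymerase II, IgG and input libraries were not analysed here.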

Additional observations from a re-analysis of the deposited data

How the results depend on the processing

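Taking from each list its strongest 37099 peaks, the length of the shortest list, left 2418 members, 1253 in the WT replicate 1 subset and 1165 in the WT replicate 2 subset, so the number of members rests in part on the longer TDG KO lists. Requiring only 1 TDG KO list, the other being left out, gave 6143 to 6206 members, 3306 to 3510 and 2696 to 2837 in the subsets. With 1 WT list left out the rule is not defined. Within 5 kb of a gene end lay 40.5% of members. Genes with an end within 10 kb gave 1021 calls of 1926 tested (53.0%, against 54% of all genes tested). Of these 518 were higher and 503 lower (26.9% and 26.1%, against 24.4% and 29.5%). Leaving out an RNA library leaves a lone library in 1 genotype, so no count of calls is given for those runs. The replicate block gave 211 calls of 374 tested (56.4%), 118 higher and 93 lower. The share over all genes in that fit is not given, so this count has no background beside it. Same-numbered libraries did not deviate together (r = -0.016 across 12035 genes, which are not independent replicates). With 2 libraries per genotype both pairs give this same value. It cannot settle whether the replicate numbers stand for a pairing, and the main fit used none. All 225 checks of the 25 named genes kept the direction. Apart from Tdg, these genes were named because they were called and their libraries did not overlap between genotypes. Leaving out a library could therefore not reverse them, and these checks say little about how firm the changes are. On chromosome 11 the WT replicate 2 subset stayed the larger at equal list length (66 and 267 regions) and in the strongest 75% of each list (115 and 221). The runs without chromosome 11, and without chromosomes 6 and 11 (2816 and 1938 regions), were chosen after seeing the data. The unknown read depth limits every statement on an absent peak.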
